A study of Mus musculus with 18 samples.

Results

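The colony-stimulating factors and their receptors were followed as 8 genes taken by name from 40481 gene IDs in RNA sequencing counts of 18 libraries of mouse lung neutrophils. They comprise 3 cytokine genes, namely Csf1 (macrophage colony-stimulating factor, M-CSF), Csf2 (granulocyte-macrophage colony-stimulating factor, GM-CSF) and Csf3 (granulocyte colony-stimulating factor, G-CSF). The other 5 encode receptor chains, namely Csf3r, Csf2ra, Csf2rb, Csf2rb2 and Csf1r. All mice had the C57BL/6 background. CGD mice lack an intact Cybb, which encodes the membrane-bound, electron-carrying part of the phagocyte NADPH oxidase and whose loss in humans causes chronic granulomatous disease, and WT mice were the controls. Neutrophils were sorted from digested lung as live cells positive for CD45, CD11b and Ly6G, and CD101, a surface protein gained as neutrophils mature, separated the CD101neg sort (labelled immature) and the CD101pos sort (labelled mature). The 6 groups of 3 libraries were CGD zymosan CD101neg, WT zymosan CD101neg, CGD zymosan CD101pos, WT zymosan CD101pos, CGD naive CD101pos and WT naive CD101pos. Zymosan, a yeast cell wall preparation, was given into the nose at 20 µg and lungs were taken 24 hours later. Zymosan mice were female and 13 weeks old, whereas naive mice were untreated males of 12 weeks, so treatment, sex and age cannot be told apart. A naive CD101neg group was not analysed here, and whether CGD and WT mice were littermates is not given in the sources used here.

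G-CSF binds a receptor made of Csf3r chains alone and drives the production and release of neutrophils. GM-CSF binds the ligand-specific chain Csf2ra together with the common beta chain Csf2rb, which also serves interleukin-3 and interleukin-5, and it signals through JAK2 and STAT5 to prolong neutrophil survival and activation. The mouse has a second beta chain, Csf2rb2, which works with the interleukin-3 receptor. M-CSF binds the receptor tyrosine kinase Csf1r, best known from monocytes and macrophages.

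Each library held 33.7 to 67.9 M counts, and levels are given as CPM, counts scaled by library size and TMM factor. A gene passed the test at an adjusted p under 0.05 in edgeR's quasi-likelihood test, with Benjamini-Hochberg adjustment over 16575 genes. The sources do not state that replicates were separate animals, so the p-values cover no more than the spread among these libraries. Cybb averaged 45.1 ± 4.7 CPM in CGD and 263 ± 10.1 CPM in WT zymosan CD101neg cells (SD, n = 3 each), and it was likewise lower in CGD in the other sorts. All 12 neutrophil markers averaged at least 1 CPM in every group, but libraries of 1 group stood far apart in them. Their summed level was 51073 to 114907 CPM in CGD and 17729 to 79580.5 CPM in WT zymosan CD101neg cells, and 32536 to 71715 CPM in CGD and 29234 to 82768 CPM in WT zymosan CD101pos cells. Ly6g, the gene of the sorting marker, stood at 59.7 to 229.8 CPM in CGD and 6.78 to 99.9 CPM in WT zymosan CD101neg cells. In WT it was highest in replicate 2 of both zymosan sorts (99.9 CPM in CD101neg and 82.9 CPM in CD101pos cells), and in naive CGD cells replicate 3 (214 CPM) stood apart from replicates 1 and 2 (21.8 and 23.9 CPM). The part of these differences in the results was not tested. Cd101 fell with the CD101neg gate in both genotypes, but the CGD zymosan CD101pos libraries (95.9 to 112 CPM) lay below the WT zymosan CD101neg libraries (156 to 185 CPM). In these bulk samples fewer cells of a type and less RNA per cell cannot be told apart.

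The 8 genes spanned a wide range of levels. Per kilobase of exon, Csf3r was the highest receptor chain, with group means between 537 ± 112 CPM per kb in CGD zymosan CD101neg cells and 1334 ± 278 CPM per kb in WT zymosan CD101pos cells (SD, n = 3 each). On the same scale Csf1 reached 336 ± 167 CPM per kb in CGD zymosan CD101neg cells, and Csf2 did not exceed 2.19 ± 0.40 CPM per kb in any group (n = 3). In all 6 groups, 7 of the 8 genes cleared the low-count filter in every library, whereas Csf2 did so in 3 groups. These were the zymosan groups CGD CD101neg, WT CD101neg and CGD CD101pos, and Csf2 cleared the filter in 0 naive CGD libraries.

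Csf3, the gene of G-CSF, was the only ligand that passed between genotypes. In zymosan CD101neg cells it stood at 63.0, 74.0 and 59.2 CPM in the CGD libraries, against 12.5, 7.27 and 16.4 CPM in the WT libraries. Every CGD library lay above every WT library, and the log2 fold change was 2.44 ± 0.31 (SE; edgeR adjusted p = 8.34e-05). The rise passed without any 1 of the 6 libraries and under every other setting tried.

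In zymosan CD101pos cells Csf3 stood at 18.9, 21.6 and 19.0 CPM in CGD, against 9.63, 5.22 and 12.5 CPM in WT. The groups again did not overlap, with a log2 fold change of 1.12 ± 0.30 (edgeR adjusted p = 0.0356). This call was close to the threshold, since without CGD replicate 1, 2 or 3 or WT replicate 1 or 2 the edgeR adjusted p was 0.0565 to 0.168, and with only these 2 groups in the fit it was 0.0661. In naive cells Csf3 stood at 3.53, 4.001 and 2.74 CPM in CGD, against 3.47, 1.87 and 2.92 CPM in WT. Those groups overlapped, and the 95% interval of the log2 fold change was -0.34 to 0.97.

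Within CGD, Csf3 was higher in the CD101neg than in the CD101pos sort, with no overlap (log2 fold change 1.72 ± 0.31, edgeR adjusted p = 0.00355). Within WT the 2 sorts overlapped, at 12.0 ± 4.56 CPM in CD101neg and 9.11 ± 3.65 CPM in CD101pos cells (SD, n = 3 each; log2 fold change 0.40 ± 0.30, edgeR adjusted p = 0.719). The difference between these differences was 1.32 ± 0.43 on the log2 scale and did not pass over all genes in the fit without a block (edgeR adjusted p = 0.153). WT libraries of the 2 sorts were also paired by a code in their titles, as described for Csf1 below. Paired in this way, Csf3 was 1.30, 1.39 and 1.31 times as high in CD101neg as in CD101pos WT cells. With the code as a block the WT difference was 0.41 ± 0.13 and did not pass (edgeR adjusted p = 0.0599). In that fit the difference between the CGD and WT differences was 1.29 ± 0.19 and passed (edgeR adjusted p = 0.000303), although CGD codes were not taken as pairs. Csf3 was also higher after zymosan than in naive CD101pos cells of both genotypes, by a log2 fold change of 2.53 ± 0.32 in CGD (edgeR adjusted p = 3.77e-05) and 1.73 ± 0.31 in WT (0.00327). The zymosan comparisons share their CD101pos libraries with the comparisons of sorts and of genotypes.

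**Figure D1:**
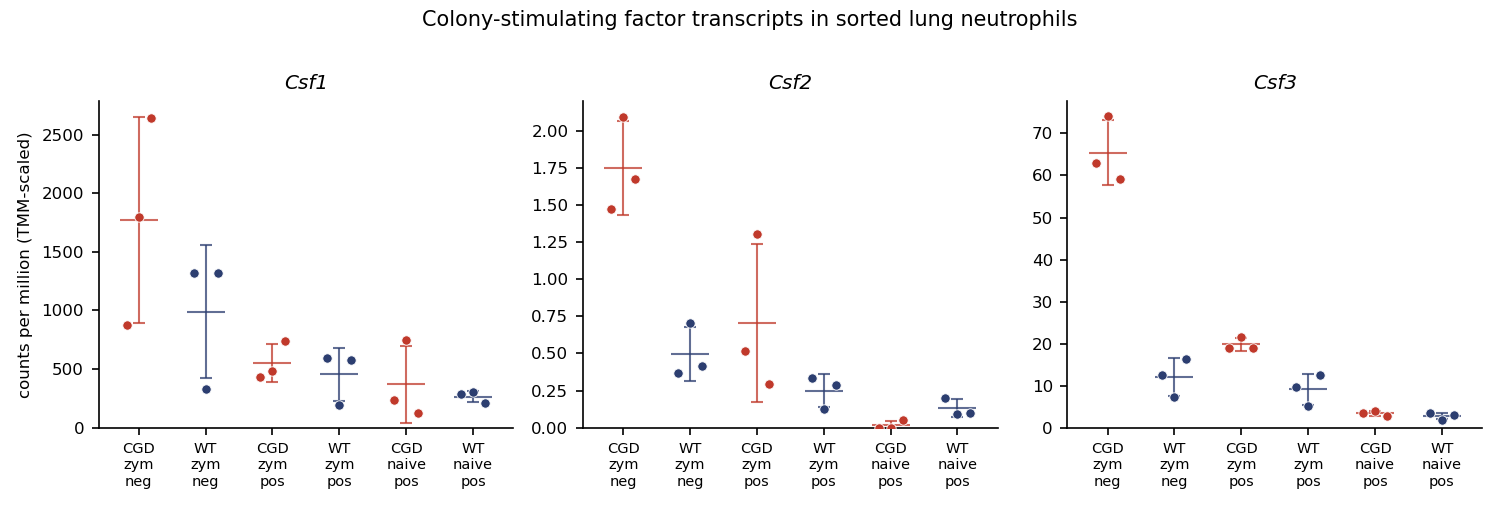
CPM (TMM-scaled, linear axis from 0) of Csf1, Csf2 and Csf3 in each library of the 6 groups, CGD in red and WT in blue, with bars for the mean and SD of 3 libraries (cut at 0). Csf3 stands at 59.2 to 74.0 CPM in CGD zymosan CD101neg cells, above every other group, and Csf1 libraries of 1 group differ several-fold.

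Csf2, the gene of GM-CSF, was scarce in every library, so its counts are given. In zymosan CD101neg cells it had 60, 103 and 74 reads in CGD, against 25, 37 and 23 reads in WT. The CGD libraries all lay above the WT libraries, at a ratio of summed reads per scaled library of 3.66 (95% exact interval 2.84 to 4.74, counting error only). Between libraries the log2 fold change was 1.82 ± 0.62 and did not pass over all genes (edgeR adjusted p = 0.0595), although it passed with only the 2 groups in the fit (0.0282) and with DESeq2 (0.0128).

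In zymosan CD101pos cells Csf2 had 25, 85 and 21 reads in CGD, against 22, 6 and 16 reads in WT. In CPM the groups overlapped, and 1 CGD library, replicate 2, held most of the reads. In naive cells it had 0, 0 and 3 reads in CGD, against 12, 6 and 4 reads in WT, a ratio of 0.115 (95% exact interval 0.0220 to 0.383, counting error only) that did not pass between libraries (edgeR adjusted p = 0.440).

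Against so few naive reads, Csf2 in CGD CD101pos cells was higher after zymosan, with 131 against 3 reads in all (ratio 46.6, 95% exact interval 15.6 to 229; log2 fold change 5.34 ± 0.86, edgeR adjusted p = 0.000414). The fitted value was 4.52 to 8.32 with 1 library left out, the highest without naive CGD replicate 3, the only one of its group with a read. In WT the counts were 44 after zymosan and 22 without, and the difference did not pass (log2 fold change 0.93 ± 0.69, edgeR adjusted p = 0.539). The genotype difference in the zymosan change was 4.40 ± 1.13 on the log2 scale and did not pass (edgeR adjusted p = 0.117). Of the exon bases of Csf2, 12.0% overlap Gm12223 on the other strand, and reads of both cannot be told apart here.

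Csf1, the gene of M-CSF, was abundant but uneven within groups. In zymosan CD101neg cells it stood at 877, 1799.8 and 2639 CPM in CGD, against 1322, 333 and 1316 CPM in WT. The groups overlapped widely, and the 95% interval of the log2 fold change was -0.43 to 2.11 (edgeR adjusted p = 0.387). In zymosan CD101pos cells it stood at 435, 483 and 736 CPM in CGD, against 596, 196 and 578 CPM in WT, and in naive cells at 235, 744 and 126 CPM in CGD, against 286, 299.8 and 209 CPM in WT. These groups overlapped as well, and Csf1 passed in none of the 9 comparisons.

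The low WT libraries in both zymosan sorts were those of 1 shared title code, replicate 2. They also had the highest neutrophil marker sums of their groups (79580.5 and 82768 CPM). The lowest Csf1 library had the highest neutrophil marker sum in CGD zymosan CD101neg and CD101pos cells (replicate 1 in each) and in naive CGD cells (replicate 3). In naive WT cells the lowest Csf1 library had the lowest sum. The part of this in the levels of Csf1 was not tested. WT libraries with the same code deviated together across genes (correlations 0.312 to 0.487), so the codes were taken as pairs in WT, and the paired values of Csf1 were 2.22, 1.70 and 2.28 times as high in CD101neg as in CD101pos cells. With the code as a block the WT difference passed (log2 fold change 1.03 ± 0.17, edgeR adjusted p = 0.000576), against 1.12 ± 0.60 and an adjusted p of 0.569 without it. That fit held the 12 zymosan libraries with the codes of both genotypes as blocks, so CGD libraries share in its estimate of the spread. In CGD the CD101neg libraries all lay above the CD101pos libraries (log2 fold change 1.68 ± 0.61, edgeR adjusted p = 0.105). That difference passed under 3 of 7 other settings, and in 0 of 6 fits with 1 library left out. The title code as a block was among the 3 settings (1.56 ± 0.17, edgeR adjusted p = 4.96e-06), although CGD codes were not taken as pairs (correlations 0.025 to 0.26). Between the sorts, libraries of different codes had correlations of -0.256 to 0.012 in CGD and -0.356 to -0.109 in WT.

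**Figure D2:**
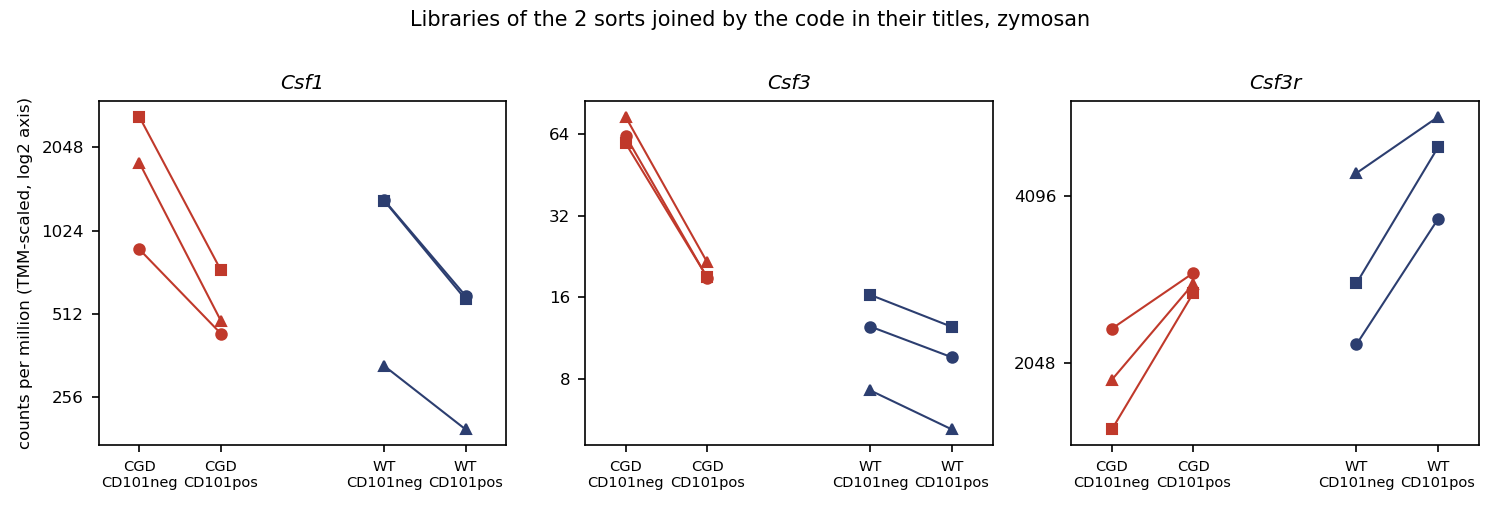
Csf1, Csf3 and Csf3r in zymosan libraries on a log2 axis of CPM, with the CD101neg and CD101pos libraries that share a title code joined by a line (circle, triangle and square for replicates 1, 2 and 3; CGD in red, WT in blue). Csf1 and Csf3 are higher in the CD101neg library and Csf3r is lower in it along all 6 lines.

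Csf3r, the G-CSF receptor, had lower means in CGD than in WT after zymosan, without passing the test. In zymosan CD101neg cells it stood at 2359.5, 1908 and 1551 CPM in CGD, against 2209.96, 4511 and 2851 CPM in WT. The groups overlapped and the log2 fold change of -0.72 ± 0.25 did not pass (edgeR adjusted p = 0.0627), although it passed without CGD replicate 1 (0.0437), without WT replicate 1 (0.0265) and with DESeq2 (0.0423).

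In zymosan CD101pos cells Csf3r stood at 2976, 2847 and 2739 CPM in CGD, against 3725, 5699 and 5022 CPM in WT. All CGD libraries lay below all WT libraries, with a log2 fold change of -0.75 ± 0.25 that did not pass (edgeR adjusted p = 0.0895), and that passed without WT replicate 1 (0.0463) and with DESeq2 (0.0316). In naive cells it averaged 3687 ± 427 CPM in CGD and 3746 ± 513 CPM in WT (SD, n = 3 each), with a 95% interval of -0.54 to 0.49 on the log2 scale. In WT, paired by title code, Csf3r in CD101neg cells stood at 0.593, 0.791 and 0.568 of its CD101pos level, and the blocked difference passed (log2 fold change -0.64 ± 0.13, edgeR adjusted p = 0.00440), against 0.404 without the block. In CGD all CD101neg libraries lay below all CD101pos libraries, but the difference did not pass (log2 fold change -0.56 ± 0.25, edgeR adjusted p = 0.182). It passed with library-size scaling (0.00823) and with the title code as a block (0.00315), although CGD codes were not taken as pairs.

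Csf2ra, the ligand-binding chain of the GM-CSF receptor, was higher in CGD than in WT in 1 sort. In zymosan CD101neg cells it stood at 199.5, 210.5 and 240.2 CPM in CGD, against 69.3, 111 and 119 CPM in WT. The groups were well apart, with a log2 fold change of 1.12 ± 0.23 (edgeR adjusted p = 0.00359), and the difference passed under every setting tried. In zymosan CD101pos cells it stood at 166, 108 and 163 CPM in CGD, against 78.2, 131 and 122 CPM in WT, with overlap and no call (edgeR adjusted p = 0.378). In naive cells the CGD libraries (136 to 149.8 CPM) lay just below the WT libraries (158 to 173 CPM), which did not pass either (edgeR adjusted p = 0.923). The difference between the genotype changes of the 2 sorts was 0.72 ± 0.32 on the log2 scale and did not pass without a block (edgeR adjusted p = 0.311). With the title code as a block it passed (edgeR adjusted p = 0.0202), although CGD codes were not taken as pairs. All WT zymosan CD101pos libraries lay below all WT naive libraries (log2 fold change -0.60 ± 0.23, edgeR adjusted p = 0.163). That difference passed with library-size scaling (0.0166). In CGD the zymosan change of CD101pos cells was 0.04 ± 0.23, with overlap.

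The common beta chain Csf2rb was higher in TMM-scaled CPM in CGD libraries of all 3 sorts without passing the test. In zymosan CD101neg cells it stood at 1137, 1222 and 1051 CPM in CGD, against 560.2, 887 and 742 CPM in WT. Among zymosan CD101pos cells the values were 961, 1134 and 1074 CPM in CGD, against 490.1, 923 and 795 CPM in WT, and in naive cells 431, 593 and 781 CPM in CGD, against 373, 408 and 407 CPM in WT. The groups did not overlap in any of the 3 comparisons, and the log2 fold changes were 0.64 ± 0.24, 0.52 ± 0.24 and 0.60 ± 0.24 (edgeR adjusted p = 0.0907, 0.265 and 0.632). With library-size scaling the CD101neg difference was only 0.18 ± 0.19 (edgeR adjusted p = 0.497). After zymosan Csf2rb was higher than in naive cells, by a log2 fold change of 0.81 ± 0.24 in CGD (edgeR adjusted p = 0.0336) and 0.89 ± 0.24 in WT (0.0469). Each of these calls survived the loss of only 1 library, naive CGD replicate 3 and zymosan WT CD101pos replicate 1, with edgeR adjusted p of 0.0501 to 0.158 and 0.139 to 0.178 without any other, and both were lost with only the groups compared (0.0626 and 0.0709). The WT call was also lost with library-size scaling (0.0995).

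Csf2rb2, the second beta chain, rose after zymosan in both genotypes. In CD101pos cells of CGD mice it stood at 139, 181 and 189 CPM after zymosan, against 31.8, 56.8 and 74.8 CPM in naive mice. In WT mice it stood at 75.6, 133 and 128 CPM after zymosan, against 17.96, 21.7 and 20.2 CPM in naive mice. Zymosan and naive groups were apart in both genotypes, with log2 fold changes of 1.64 ± 0.26 in CGD (edgeR adjusted p = 0.000395) and 2.49 ± 0.27 in WT (2.91e-05), and both rises passed under every setting tried. The difference between the 2 changes was -0.85 ± 0.36 and did not pass (edgeR adjusted p = 0.3999).

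The naive libraries also differed by genotype in Csf2rb2, with every CGD library above every WT library (log2 fold change 1.45 ± 0.26, edgeR adjusted p = 0.0384). That call was lost without any 1 library other than CGD replicate 1 (edgeR adjusted p = 0.115 to 0.234), with library-size scaling (0.0584) and with only the 2 naive groups in the fit (0.185). In zymosan cells Csf2rb2 was again higher in each CGD library, at 242.6 ± 14.3 CPM in CGD and 153 ± 19.5 CPM in WT CD101neg cells, and at 169.5 ± 27.0 CPM in CGD and 112 ± 31.7 CPM in WT CD101pos cells (SD, n = 3 each). Neither difference passed (edgeR adjusted p = 0.0983 and 0.218). The CD101neg log2 fold change was 0.66 ± 0.26, and only 0.18 ± 0.25 with library-size scaling (edgeR adjusted p = 0.620).

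Csf2rb and Csf2rb2 are close paralogs, so their reads can be misassigned. Their coding sequences in GENCODE release M21 (2688 and 2634 bases) were identical at 95.2% of 2628 aligned positions. Of the 50-base windows in their annotated transcripts, 12.3% of those of Csf2rb and 18.4% of those of Csf2rb2 occurred in the other gene. The ungapped stretch of 120 coding bases that differs most, at coding bases 309 to 428 of Csf2rb and 312 to 431 of Csf2rb2 (both genes lie on chromosome 15), shows what could tell the reads apart, with the 22 differing bases in capitals.
Csf2rb: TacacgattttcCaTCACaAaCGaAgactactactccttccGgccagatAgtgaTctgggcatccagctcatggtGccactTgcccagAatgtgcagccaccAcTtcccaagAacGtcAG
Csf2rb2: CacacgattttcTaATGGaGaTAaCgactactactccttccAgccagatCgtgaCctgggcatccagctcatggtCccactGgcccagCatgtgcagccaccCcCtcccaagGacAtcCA

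Of the reads assigned to either beta chain, Csf2rb2 took 17.6% ± 0.76 in CGD and 17.7% ± 3.67 in WT zymosan CD101neg cells, 13.8% ± 1.18 in CGD and 13.3% ± 0.66 in WT zymosan CD101pos cells, and 8.11% ± 1.08 in CGD and 4.79% ± 0.24 in WT naive cells (SD, n = 3 each). The shares of the naive genotypes did not overlap, nor did those of zymosan and naive cells in either genotype (exact two-sided permutation p = 0.1 for each, the smallest that 3 against 3 allows). Between CD101neg and CD101pos cells the shares were apart in CGD (exact permutation p = 0.1) and overlapped in WT (exact permutation p = 0.2). The share of the 2 genotypes overlapped in both zymosan sorts (exact permutation p = 1.0 for CD101neg and 0.6 for CD101pos). With the reads of both chains summed, the zymosan differences passed in CGD (log2 fold change 0.90 ± 0.24, edgeR adjusted p = 0.0181) and in WT (1.03 ± 0.24, 0.0205), and the naive genotype difference did not (0.66 ± 0.24, 0.537).

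**Figure D3:**
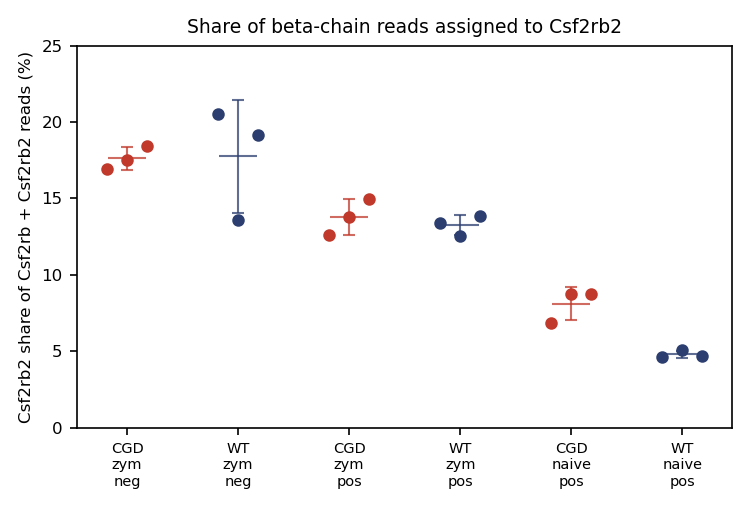
Share of the reads of Csf2rb and Csf2rb2 together that were assigned to Csf2rb2, in percent, for each library of the 6 groups (CGD red, WT blue) with the mean and SD of 3 libraries. Naive libraries lie between 4.60% and 8.74%, and zymosan libraries between 12.6% and 20.5%.

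Csf1r, the M-CSF receptor, was lower in CGD cells after zymosan in both sorts. In CD101neg cells it stood at 250.2, 389.8 and 385 CPM in CGD, against 568, 477 and 564 CPM in WT. In CD101pos cells it stood at 262, 298 and 380.0 CPM in CGD, against 554, 534 and 659 CPM in WT. No CGD library reached a WT library in either sort, and the log2 fold changes were -0.65 ± 0.20 (edgeR adjusted p = 0.0345) and -0.89 ± 0.20 (0.0113). The first call was lost without CGD replicate 1 or 2 or WT replicate 1 or 3 (edgeR adjusted p = 0.0535 to 0.103), and the second without CGD replicate 2 (0.0717) or WT replicate 3 (0.0669). With only the 2 groups compared in the fit, neither passed (edgeR adjusted p = 0.168 and 0.0685).

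In naive cells Csf1r stood at 517.5, 493.5 and 443 CPM in CGD, against 449, 462 and 473 CPM in WT, with overlap and a 95% interval of -0.34 to 0.48 on the log2 scale. Zymosan CD101pos cells were lower than naive ones in CGD (log2 fold change -0.63 ± 0.20, edgeR adjusted p = 0.0401). Of the libraries left out in turn, only the loss of zymosan CGD CD101pos replicate 3 kept that call, and the edgeR adjusted p was 0.0527 to 0.143 without any other, 0.0856 with only the groups compared and 0.0772 without the low-count filter. In WT the difference was 0.34 ± 0.19 and did not pass (edgeR adjusted p = 0.408), and the difference between the 2 changes did not pass (-0.96 ± 0.28, 0.177). The exons of Csf1r overlap Hmgxb3 on the other strand over 15.1% of their bases.

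Macrophages also carry Csf1r and the GM-CSF receptor, so their markers were measured beside the receptor chains. Over all tested genes, 6.67% were higher and 6.24% lower in CGD zymosan CD101neg cells, and 2.77% and 2.53% in CGD zymosan CD101pos cells. In naive CGD cells the shares were 0.121% and 0.00603%. After zymosan they were 7.13% and 5.71% in CGD CD101pos cells, and 2.92% and 0.875% in WT. Between the CGD sorts 3.27% were higher and 4.08% lower in CD101neg cells. In CD101neg cells 8 of 14 markers of monocytes and interstitial macrophages were lower in CGD and 0 higher, while their summed level was 974 to 1203 CPM in CGD and 961 to 1236 CPM in WT. In CD101pos cells 0 were lower and 5 higher in CGD, at 1163 to 1376 CPM in CGD and 882 to 1022 CPM in WT. Of the same 14 markers, 6 were higher and 1 lower after zymosan in CGD CD101pos cells, 4 were higher and 0 lower in WT, and 0 were higher and 8 lower in CD101neg than in CD101pos cells of CGD. Of 15 alveolar macrophage markers, 7 were lower and 1 (Chil3, also a neutrophil transcript) higher in CGD CD101neg cells (median log2 fold change -0.59), and 0 were lower and 6 higher in CGD CD101pos cells (median 1.44). Their summed level was 1769.97 to 2789.7 CPM in CGD and 515 to 777 CPM in WT CD101neg cells, and 2544 to 2960.1 CPM in CGD and 527 to 759.9 CPM in WT CD101pos cells. Chil3 alone stood at 1298 to 2340.3 CPM in CGD and 231 to 406 CPM in WT CD101neg cells, and at 1672 to 2333 CPM in CGD and 205 to 296 CPM in WT CD101pos cells. The other 14 markers together gave 350.3 to 472 CPM in CGD and 284 to 431 CPM in WT CD101neg cells, which overlapped, and 614 to 872 CPM in CGD and 318 to 464 CPM in WT CD101pos cells, which did not. Between zymosan and naive CD101pos cells, 9 alveolar macrophage markers were higher and 0 lower in CGD, and 10 higher and 0 lower in WT. Between the CGD sorts 10 were lower and 0 higher in CD101neg cells. In naive cells 3 were higher and 0 lower in CGD, at 216 to 543 CPM in CGD and 175 to 204 CPM in WT. None of the markers of either list was at 0 in all libraries of a group, and their part in the results for the receptor chains was not tested.

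Markers of stromal and lymphoid cells, known sources of these cytokines, were measured as well. Their counts stand against the same shares of all tested genes as those of the macrophage markers. Summed fibroblast markers (8 genes) were 63.7 to 66.0 CPM in CGD and 112 to 155 CPM in WT zymosan CD101neg cells. Of these 8 genes, 3 were lower and 0 higher in CGD. Summed endothelial markers (7 genes) were 137 to 189 CPM in CGD and 162 to 269 CPM in WT CD101neg cells, and epithelial ones (8 genes) 322 to 589.9 CPM in CGD and 498 to 1067 CPM in WT, with 0 called in either list. Summed T, NK and innate lymphoid markers (10 genes) were 13.2 to 15.8 CPM in CGD and 12.5 to 16.6 CPM in WT CD101neg cells, again with 0 called. In zymosan CD101pos cells they were 11.9 to 22.0 CPM in CGD and 10.7 to 11.8 CPM in WT. There 1 of the 10 (Il7r) was higher and 0 lower in CGD. Between the CGD sorts 1 (Cd4) was lower and 0 higher in CD101neg cells. Summed B cell markers (7 measured) were 26.4 to 43.1 CPM in CGD and 116 to 145 CPM in WT CD101neg cells, with 6 lower and 0 higher in CGD, and they were 42.8 to 63.2 CPM in CGD and 149 to 175 CPM in WT CD101pos cells, with 5 lower and 0 higher. In naive cells B cell markers summed to 299 to 437 CPM in CGD and 429.6 to 454 CPM in WT, and 6 of 7 were lower and 0 higher after zymosan in each genotype. Between zymosan and naive CGD CD101pos cells 3 of 8 epithelial markers (Krt8, Cdh1 and Ager) were higher and 0 lower, at sums of 1016 to 1245 CPM after zymosan and 607 to 1730.1 CPM without, and the same 3 were lower in CGD CD101neg than in CGD CD101pos cells. Of 4 eosinophil markers tested, 2 (Prg2 and Siglecf) were higher and 0 lower after zymosan in WT, at sums of 52.8 to 125 CPM after zymosan and 29.0 to 37.2 CPM without. The part of these cells in the levels of Csf1, Csf2 and Csf3 was not tested.

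**Figure D4:**
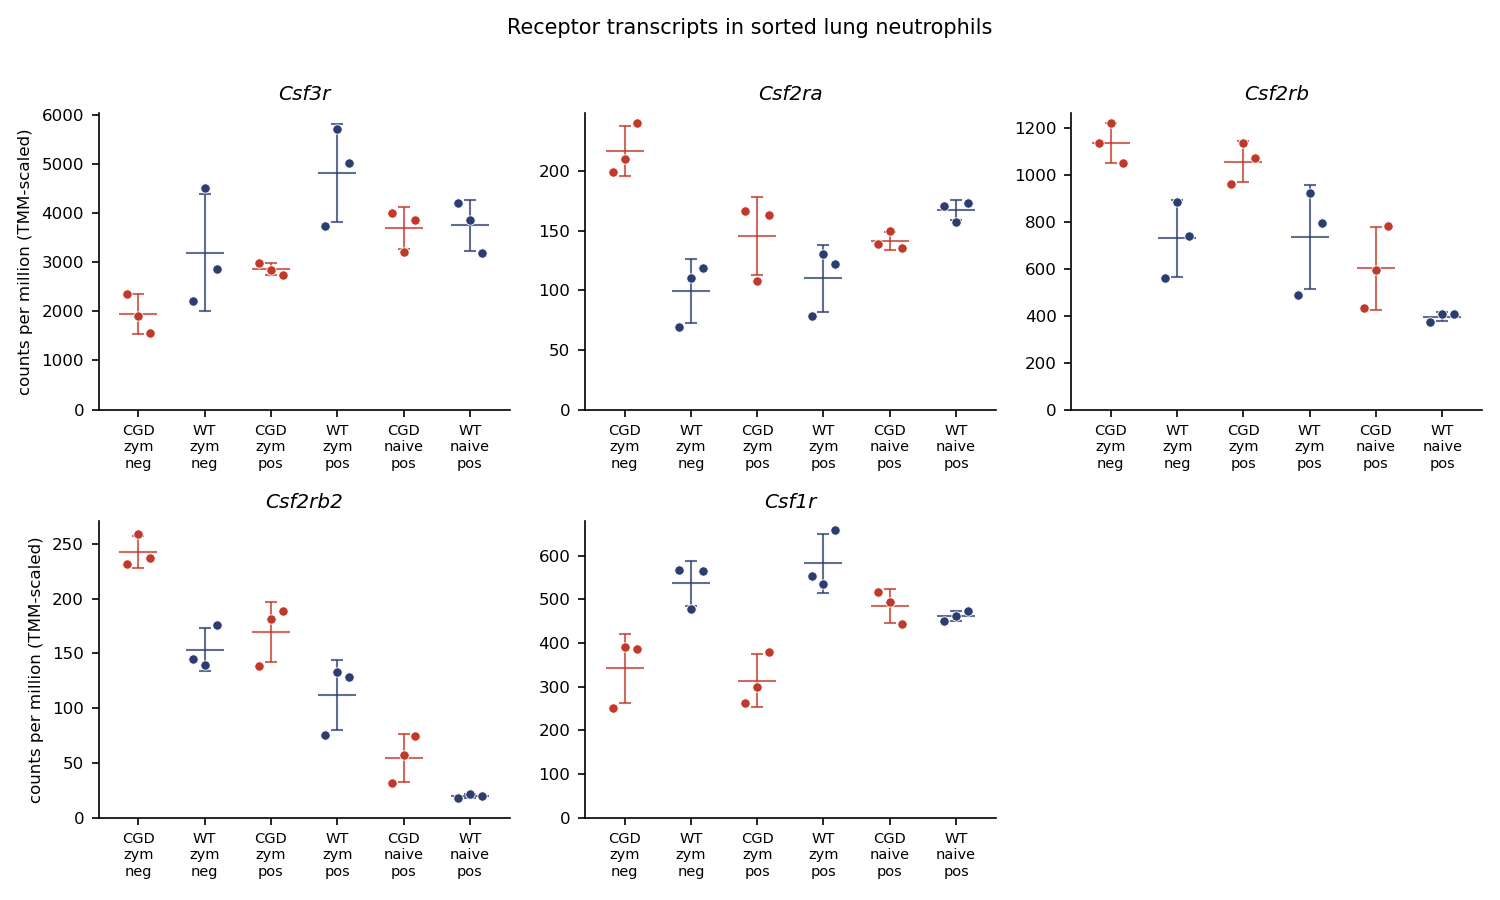
CPM (TMM-scaled, linear axis from 0) of the 5 receptor chains in each library of the 6 groups, CGD in red and WT in blue, with bars for the mean and SD of 3 libraries. Csf2ra separates CGD from WT in zymosan CD101neg cells, Csf1r does so in both zymosan sorts, and Csf2rb2 is lowest in naive cells. Genotypes are also apart for Csf2rb and Csf2rb2 in every sort, Csf3r in zymosan CD101pos cells and Csf2ra in naive cells (CGD lower). Of these further differences, only that of Csf2rb2 in naive cells passed the test.

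Counted over the 8 genes, 2 rose (Csf3 and Csf2ra) and 1 fell (Csf1r) in CGD zymosan CD101neg cells, where 6.67% of all tested genes rose and 6.24% fell. Their median log2 fold change was 0.75, against -0.08 over all genes. For zymosan CD101pos cells 1 rose (Csf3) and 1 fell (Csf1r), where 2.77% and 2.53% of all genes did, with medians of 0.46 and 0.02. In naive cells 1 rose (Csf2rb2) and 0 fell, where 0.121% and 0.00603% of all genes did. The medians were 0.19 and 0.00. Csf1, Csf2, Csf3r and Csf2rb passed in none of these 3 comparisons.

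Between sorts, 1 of the 8 (Csf3) was higher and 0 lower in CD101neg cells of CGD, where 3.27% of all genes were higher and 4.08% lower, with medians of 0.55 and -0.02. In WT 0 passed in either direction without the title code as a block, with edgeR and with DESeq2, where edgeR called 0.41% of all genes higher and 0.0302% lower. At an unadjusted p under 0.05 there was 1 of the 8, Csf3r, and 10.2% of all genes, and the medians were 0.19 and 0.02. With the block Csf1 was higher and Csf3r lower in WT CD101neg cells, where 5.05% of 15791 genes were higher and 5.98% lower. After zymosan 4 rose (Csf2, Csf3, Csf2rb and Csf2rb2) and 1 fell (Csf1r) in CGD, where 7.13% and 5.71% of all genes did, and 3 rose (Csf3, Csf2rb and Csf2rb2) and 0 fell in WT, where 2.92% and 0.875% did. The medians were 0.70 and 0.00 in CGD, and 0.84 and -0.03 in WT. Csf2 was kept by the low-count filter through its zymosan groups, and the naive CGD libraries held 0, 0 and 3 reads of it.

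The interactions asked whether a change differed between genotypes. In that of genotype with sort 0 of the 8 passed without a block, where 0.181% of all genes were higher and 0.67% lower. Of the 8, 2 had an unadjusted p under 0.05, as did 14.4% of all genes. In the interaction of genotype with zymosan 0 passed with edgeR, where 0.163% of all genes were higher and 0.157% lower. An unadjusted p under 0.05 was found for 4 of the 8 and for 10.7% of all genes. DESeq2 called 2 of the 8 (Csf2 and Csf1r) and 267 of 13032 genes in it.

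Scaling by library size alone put the median log2 fold change of all genes at -0.57, against -0.08 with TMM, in the genotype comparison of CD101neg cells, in which the TMM factors of CGD were lowest (0.702 to 0.809). The split of genes higher and lower in CGD there became 413 and 3572, against 1105 and 1034 with TMM. For zymosan CD101pos cells it became 308 and 490 (459 and 419 with TMM), for the CGD sorts 82 and 1163 (542 and 676), for zymosan in CGD 727 and 2021 (1182 and 946), and for zymosan in WT 264 and 617 (484 and 145). For the interaction with sort it became 1 and 163 (30 and 111), and for that with zymosan 9 and 4 (27 and 26). Under that scaling Csf3r passed as lower in CGD in both zymosan sorts (log2 fold change -1.17 in CD101neg and -0.77 in CD101pos cells, edgeR adjusted p = 0.000506 and 0.0161), and in CD101pos cells the call on Csf3 was lost (edgeR adjusted p = 0.109). The CD101neg genotype differences of Csf2rb and Csf2rb2 shrank to 0.18 each under it, against 0.64 and 0.66 with TMM.

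**Figure D5:**
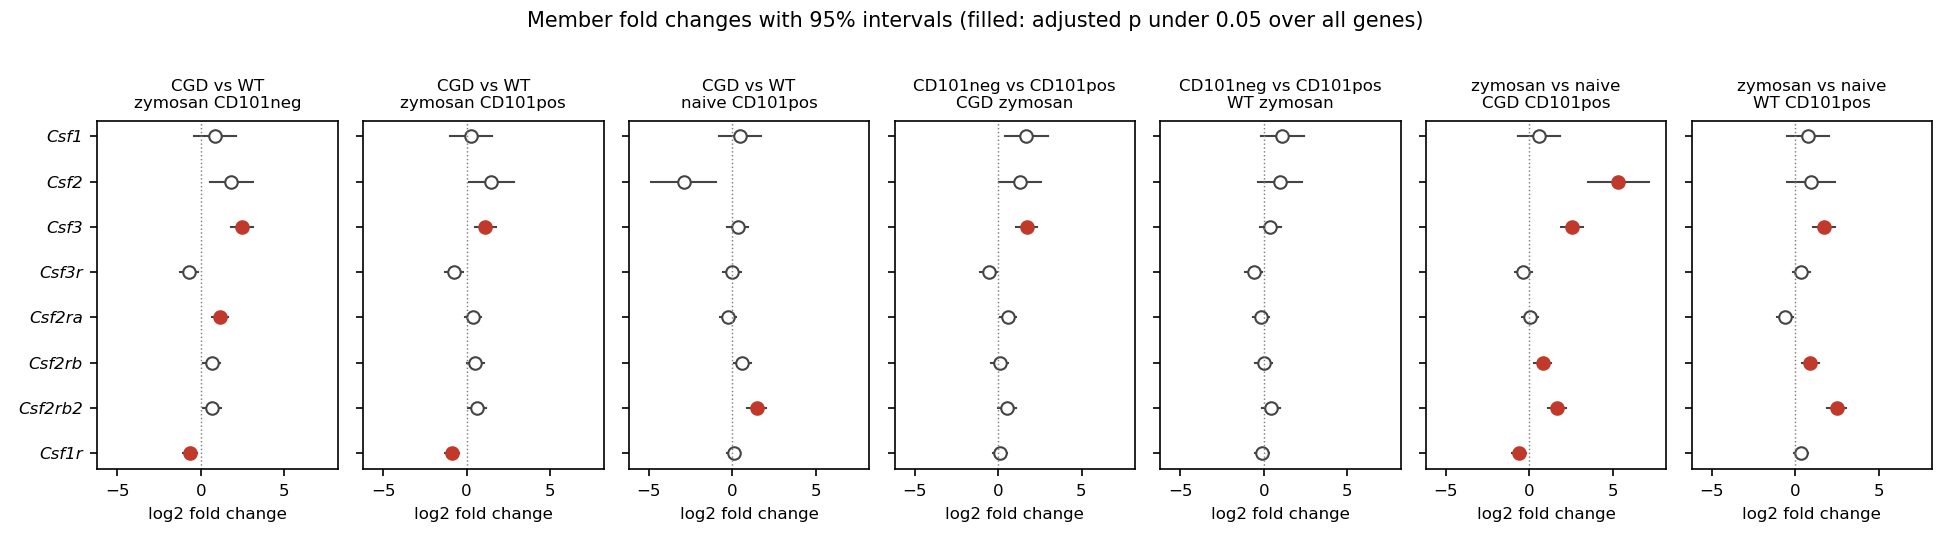
Log2 fold changes of the 8 genes (dots) with 95% intervals (lines) in the 7 pairwise comparisons, filled where the edgeR adjusted p over all genes was under 0.05. Csf3 is filled in 5 panels, and the wide intervals belong to Csf1 and Csf2.

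To show the sequence around the start of receptor genes, promoters were taken from the RefSeq table (GRCm38.p6), 250 bases before to 50 after the annotated start. They are printed for 3 receptor chains, namely Csf2ra, Csf2rb2 and Csf3r, and 5 short motifs were searched on both strands. Capitals mark every match, and overlapping matches merge. The motifs were GGGNNNNNCC (NF-kB type, in 50.8% of 32851 promoters of that length), TTNNGNAA (C/EBP type, 40.7%), TTCNNNGAA (STAT type, 8.30%), TGANTCA (AP-1 type, 7.81%) and AGGAAG (PU.1 type, 35.4%). The table has no entry for Csf3 and Csf2rb, and the sequence of Csf1r was not used here.
Csf2ra promoter (chr19:61228369-61228668, minus strand): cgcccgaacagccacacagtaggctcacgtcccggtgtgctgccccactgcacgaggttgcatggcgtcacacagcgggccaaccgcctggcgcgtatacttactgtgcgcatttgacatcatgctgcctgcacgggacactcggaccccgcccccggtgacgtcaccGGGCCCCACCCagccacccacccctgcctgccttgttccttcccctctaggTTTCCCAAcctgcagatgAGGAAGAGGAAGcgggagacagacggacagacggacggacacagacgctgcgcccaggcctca
Csf2rb2 promoter (chr15:78305672-78305971, minus strand): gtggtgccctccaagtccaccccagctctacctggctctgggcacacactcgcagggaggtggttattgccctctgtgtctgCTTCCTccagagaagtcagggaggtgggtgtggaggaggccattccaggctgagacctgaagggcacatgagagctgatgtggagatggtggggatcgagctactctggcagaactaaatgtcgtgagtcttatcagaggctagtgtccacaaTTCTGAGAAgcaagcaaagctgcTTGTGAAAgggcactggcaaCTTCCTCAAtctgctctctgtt
Csf3r promoter (chr4:126024409-126024708, plus strand): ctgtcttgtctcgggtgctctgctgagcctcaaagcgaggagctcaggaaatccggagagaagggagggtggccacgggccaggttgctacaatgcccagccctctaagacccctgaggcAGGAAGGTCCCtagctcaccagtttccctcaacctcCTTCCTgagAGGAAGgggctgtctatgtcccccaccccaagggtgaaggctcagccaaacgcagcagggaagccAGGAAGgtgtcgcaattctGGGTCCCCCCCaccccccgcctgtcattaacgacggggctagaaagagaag

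The Csf2rb2 window held 1 STAT type match, 15 to 7 bases before the start, with 2 C/EBP type and 2 PU.1 type matches, 1 of each overlapping. The Csf2ra window held 2 overlapping NF-kB type, 1 C/EBP type and 2 adjoining PU.1 type matches, and the Csf3r window 4 PU.1 type and 3 NF-kB type matches, with 1 overlap between the kinds and 1 between NF-kB type matches. These matches describe letters only.

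The gene lists of the pathway stand beside the shares of all tested genes, which were 6.67% higher and 6.24% lower in CGD zymosan CD101neg cells, 2.77% and 2.53% in zymosan CD101pos cells and 0.121% and 0.00603% in naive cells, with median log2 fold changes of -0.08, 0.02 and 0.00. Downstream of the receptors, of 21 kinases, STATs, adaptors and phosphatases, 4 rose and 0 fell in CGD zymosan CD101neg cells, with a median of 0.22 over the list. They were Ptpn6 (1021 ± 232 CPM in CGD and 656 ± 26.1 CPM in WT) and Inpp5d, phosphatases that limit cytokine signals, and the kinases Lyn (822 ± 7.6 CPM in CGD and 473 ± 132 CPM in WT) and Tyk2. Within the zymosan CD101pos sort 0 rose and 3 fell, with a median of -0.22, namely the kinase Jak1 (284 ± 40.7 CPM in CGD and 445.5 ± 74.5 CPM in WT), the transcription factor Stat5b (40.0 ± 4.95 CPM in CGD and 81.6 ± 32.5 CPM in WT) and the lipid kinase Pik3cd (89.7 ± 19.9 CPM in CGD and 203 ± 69.3 CPM in WT). In naive cells 0 of 21 passed (median 0.03).

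Of 18 genes known to respond to these cytokines, 2 rose and 0 fell in CGD zymosan CD101neg cells (median 0.52). They were Bcl2l1, a survival gene (1475 ± 88.3 CPM in CGD and 729 ± 76.2 CPM in WT), and Il1rn, the interleukin-1 receptor antagonist (18055 ± 5717 CPM in CGD and 5480 ± 2981 CPM in WT). Among zymosan CD101pos libraries 3 rose and 0 fell (median 0.75), namely the feedback inhibitors Cish (199 ± 36.5 CPM in CGD and 44.1 ± 22.6 CPM in WT, log2 fold change 2.18 ± 0.51, edgeR adjusted p = 0.0178) and Socs3 (717 ± 111 CPM in CGD and 405 ± 50.9 CPM in WT), and Myc (7.94 ± 1.73 CPM in CGD and 2.82 ± 0.97 CPM in WT). In naive cells 1 rose, Bcl2l1 (299.6 ± 175 CPM in CGD and 102 ± 14.5 CPM in WT), and 0 fell (median 0.21).

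Among 13 related cytokines and receptors, of which 10 were tested, 0 rose and 1 fell in CGD zymosan CD101neg cells, namely Kitl, the gene of stem cell factor (5.18 ± 1.88 CPM in CGD and 13.6 ± 4.64 CPM in WT), with a median of -0.53. None passed in the other genotype comparisons with edgeR. Of 20 genes acting upstream of cytokine transcription, 3 rose and 1 fell in CGD zymosan CD101neg cells (median 0.30), namely the NF-kB genes Nfkb1 (158 ± 21.8 CPM in CGD and 53.6 ± 1.83 CPM in WT), Nfkb2 and Rel, against Fos (1089.5 ± 118 CPM in CGD and 2364 ± 418 CPM in WT). For zymosan CD101pos libraries Nfkb1 rose and Fos fell (median 0.01), and in naive cells 0 passed (median 0.03).

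Of 9 genes that control the stability of cytokine mRNAs, 1 rose and 1 fell in CGD zymosan CD101neg cells (median -0.03), namely the AU-rich element binding proteins Zfp36l1 (192 ± 56.7 CPM in CGD and 102 ± 23.3 CPM in WT) and Zfp36l2 (50.5 ± 5.00 CPM in CGD and 89.4 ± 17.2 CPM in WT). Across zymosan CD101pos libraries 0 rose and 2 fell (median -0.07), namely Zfp36l2 (37.3 ± 5.17 CPM in CGD and 70.0 ± 3.90 CPM in WT) and Elavl1 (19.0 ± 0.46 CPM in CGD and 31.7 ± 0.45 CPM in WT), which stabilises such mRNAs. In naive cells 0 passed (median 0.15).

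Across the 18 libraries, the genes whose log2 CPM ran most like each member were listed among 6731 genes with a mean of at least 5 CPM. These values share the libraries and the differences between the 6 groups, and they describe likeness only. Csf3 ran most like Nfkbib, an NF-kB inhibitor (Pearson r = 0.987), Sod2, the mitochondrial superoxide dismutase (0.986), Ehd1 (0.979), Rffl (0.978) and Zfp131 (0.977). Csf1 ran like Irak2, a kinase of interleukin-1 and Toll-like receptor signalling (0.962), Bcor (0.960), Denr (0.959), Alcam (0.957) and Frrs1 (0.953), and Csf2 like Gas7 (0.937), Zfp207 (0.933), Slc18a2 (0.906), Gt(ROSA)26Sor (0.906) and Tubb4b (0.902).

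Among receptor chains the closest gene of Csf3r was Slc44a2 (r = 0.974), followed by Rmdn1 (0.959), Ccpg1os (0.947), Galnt7 (0.943) and Aacs (0.943). Csf2rb ran like Tgm1 (0.969), Tarm1 (0.961), App (0.954), Smox (0.953) and Ggt1 (0.951). Csf2rb2 ran like the survival gene Bcl2l1 (0.979), Upp1 (0.976), Alas1 (0.969), Mmp19 (0.956) and Clk3 (0.954), and neither beta chain was among the other's 5 closest genes. Csf1r ran like Tmem184b (0.947), Zfp710 (0.933), Csnk1e (0.930), Eif2ak3 (0.907) and Atxn3 (0.903). The likeness was lowest for Csf2ra, with Nr1h2 (0.898), Atp10d (0.864), Antxr2 (0.862), Dda1 (0.851) and Cyth1 (0.845).

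Ordered by group mean, Csf3 ran from CGD zymosan CD101neg through CGD zymosan CD101pos, WT zymosan CD101neg, WT zymosan CD101pos and CGD naive to WT naive cells, and the neighbours whose ranges overlapped were the 2 WT zymosan sorts and the 2 naive groups. Csf2rb2 followed the same order, with overlap only between CGD zymosan CD101pos and WT zymosan CD101neg cells. Csf1r ran from WT zymosan CD101pos and WT zymosan CD101neg through CGD naive and WT naive to CGD zymosan CD101neg and CGD zymosan CD101pos cells, and the only neighbours without overlap were WT naive and CGD zymosan CD101neg cells. Csf2ra was highest in CGD zymosan CD101neg cells, apart from all others, and lowest in the 2 WT zymosan sorts, which overlapped. Csf2rb was highest in the 2 CGD zymosan sorts, which overlapped, and lowest in WT naive cells, apart from all others. For Csf1 every neighbouring pair of groups overlapped, and for Csf3r all but the lowest pair, CGD zymosan CD101pos and CGD zymosan CD101neg cells.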

How the data were processed

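RNA was sequenced from 18 sorted samples in 6 groups of 3, after sorts of 50000 to 200000 cells each. The authors deposited unnormalised gene counts. The submitters' processing notes name featureCounts 1.4.6-p5, Subread and the aligner STAR 2.5.1a, and the labels' protocols name SMARTer kit libraries of total RNA. Not given in the sources used here were the genome build, the annotation and the strand setting. The 276 repeated lines of the table (identical counts) were used once, and library totals were 33.7 to 67.9 M counts.

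Counts were fitted with edgeR 4.0.16 (R 4.3.3) in 1 model of 6 groups with TMM factors, 12 residual degrees of freedom and the robust quasi-likelihood test. The filter filterByExpr kept 16575 genes, and adjusted p-values (Benjamini-Hochberg) passed at 0.05. SE is the fold change divided by the square root of F, and intervals are 95%. CPM use TMM factors, with exon lengths from GENCODE M21 for values per kb. The 8 genes and the lists were chosen with earlier results of these data known, and neither their members nor their direction is independent evidence. From each list, up to 4 called genes with the lowest adjusted p per genotype comparison were named. Exact intervals of Csf2 reads cover counting error only. By their correlations, title codes were taken as pairs in the WT zymosan sorts (all 3 above 0.1) and not in the CGD sorts. The fit with the code as a block nevertheless held the 12 zymosan libraries with the codes of both genotypes as blocks. Alternatives were DESeq2 1.42.0, other scalings, no filter, fewer groups, replicate blocks and libraries left out in turn. The method was tested on simulated data.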

Additional observations from a re-analysis of the deposited data

Results flagged for a closer look

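For Cd101, the gene behind the sort, the zymosan change differed between genotypes. It averaged 105 ± 7.96 CPM after zymosan and 301 ± 72.2 CPM without in CGD CD101pos cells, and 403 ± 70.3 CPM after zymosan and 375 ± 60.0 CPM without in WT CD101pos cells (SD, n = 3 each). The difference of the 2 log2 changes was -1.63 ± 0.32 (edgeR adjusted p = 0.0349).

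For Zfp36l2, which encodes a protein that binds and destabilises AU-rich mRNAs, the zymosan change also differed between genotypes. It stood at 31.9 to 42.2 CPM after zymosan and 68.7 to 96.6 CPM without in CGD, and at 66.7 to 74.3 CPM after zymosan and 54.2 to 75.3 CPM without in WT CD101pos cells. The difference of the 2 log2 changes was -1.26 ± 0.27 (edgeR adjusted p = 0.0497).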

How the results depend on the processing

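Of 15 calls on the 8 genes, 8 passed under every alternative, namely 4 on Csf3 (all but the genotype comparison of CD101pos cells), 2 on Csf2rb2 after zymosan, 1 on Csf2 after zymosan in CGD and 1 on Csf2ra. The call on Csf2 was made against 0, 0 and 3 reads in the naive CGD libraries, and the low-count filter kept the gene through its zymosan groups. The number of members called in the genotype comparison of CD101neg cells (3) became 5 with the replicate number as a block and 5 with DESeq2, that of CD101pos cells (2) became 0 with only the groups compared and 0 to 2 with 1 library left out, and that of naive cells (1) became 0 with library-size scaling, 0 with only the groups compared and 0 to 1 with 1 left out. For the CGD sorts (1) it became 2 with library-size scaling, 2 with only the groups compared, 2 with DESeq2 and 6 with the title code as a block, for the WT sorts (0) 2 with that block and 0 to 1 with 1 left out, and for the interaction with sort (0) 2 with that block (Csf3 at 1.29 ± 0.19 and Csf2ra at 0.73 ± 0.20, edgeR adjusted p = 0.000303 and 0.0202). In CGD the codes did not meet the rule for pairs (correlations 0.025 to 0.26, against -0.256 to 0.012 for different codes). For zymosan in CGD (5) it became 3 with only the groups compared and 3 to 4 with 1 left out, and for the interaction with zymosan (0) 1 without the filter and 2 with DESeq2. Of 72 fold changes of members, 39 passed under no setting, and 17 of those changed sign under at least 1, the largest absolute value there being 0.82. Over all genes, the calls were 2139, 878, 21, 1218, 73, 2128, 629, 141 and 53 in the order used for the percentages, and with the alternatives ranged over 1062 to 3985, 320 to 1402, 2 to 107, 321 to 3924, 0 to 1741, 1170 to 2790, 263 to 1220, 43 to 2229 and 5 to 267. Depth limits Csf2 alone, with 0 to 103 reads per library.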

Other observations

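Between zymosan and naive CD101pos cells 7.13% of all tested genes were higher and 5.71% lower in CGD, and 2.92% and 0.875% in WT. Of genes known to respond to these cytokines, in CD101pos cells of CGD mice 7 of 18 rose and 0 fell (Socs2, Socs3, Cish, Bcl2l1, Bcl2a1b, Myc and Arg1), with a median log2 fold change of 1.07 against 0.00 over all genes, and in WT mice 3 rose (Socs3, Cish and Bcl2l1) and 0 fell, with a median of 0.41 against -0.03. Cish, a STAT5-induced feedback inhibitor, averaged 199 ± 36.5 CPM after zymosan and 15.1 ± 12.0 CPM without in CGD, and 44.1 ± 22.6 CPM after zymosan and 5.94 ± 1.96 CPM without in WT (SD, n = 3 each; log2 fold changes 3.73 ± 0.54 and 2.89 ± 0.53, edgeR adjusted p = 0.000188 and 0.00382). In the comparison of zymosan with naive cells, sex and age differ too.

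Among the 20 upstream genes, 7 rose and 2 fell after zymosan in CGD CD101pos cells, and 4 rose and 1 fell in WT. Nfkb1, Il1a, Il1b and Tnf rose and Ets1 fell in both genotypes. Of the 21 signalling genes, 2 rose (Jak2, the kinase of the GM-CSF receptor, and Inpp5d) and 2 fell (Stat5a and Stat5b) after zymosan in CGD (median -0.30), and 1 rose (Jak2) and 0 fell in WT (median 0.15). Stat5b averaged 40.0 ± 4.95 CPM after zymosan and 78.0 ± 7.89 CPM without in CGD (SD, n = 3 each; log2 fold change -0.96 ± 0.30, edgeR adjusted p = 0.0374). Between sorts, 4 of the 20 (Nfkb2, Relb, Rel and Tlr2) were higher in CGD CD101neg than in CGD CD101pos cells and 0 lower, where 3.27% of all genes were higher and 4.08% lower. In WT 0 passed with edgeR without the title code as a block, where 0.41% and 0.0302% of all genes did. Whether the sorts differ between genotypes in these genes did not pass for any of the 20.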
